A study of Mus musculus with 12 samples.

Results

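Interferon-stimulated genes are the genes that cells turn on when an interferon reaches its receptor. A list of 45 such genes was followed here through cultured and freshly isolated mouse hepatic stellate cells, and 44 of them had a row in the deposited table of 12081 genes. The remaining gene, Mx2, was not analysed here. Members were matched by gene symbol, with no threshold on a measured value.

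Hepatic stellate cells are liver pericytes that store vitamin A and become myofibroblasts when activated. Their RNA was sequenced in 4 groups of 3 libraries. All donors of cells were Hk2 fl/fl mice, in which Cre recombinase can remove Hk2, the hexokinase 2 gene, whose enzyme opens glycolysis. LAC cells had received an adenovirus expressing Cre fused to eGFP and then 10 mM lactate for 24 h. KO cells had received the same Cre virus without lactate. ACT cells had received an adenovirus expressing eGFP alone, and these cultures, like those of KO and LAC, were kept for 6 days. QS cells were freshly isolated and untreated, and had therefore had neither virus nor culture. The promoter that drives Cre is not given in the sources used here, and an adenovirus can enter cells of several types, so deletion need not be limited to stellate cells. The age and sex of the mice and the number of livers behind each library are not given in the sources used here, so p-values speak only to the spread among these libraries, which may be technical. The study asked, by its title and design, what hexokinase 2 and lactate do to gene expression in activated stellate cells.

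As background, interferons bind cell surface receptors whose Janus kinases phosphorylate Stat2 and related factors. Type I interferons act mainly through a complex with Stat2 and Irf9 that binds the interferon-stimulated response element (ISRE) in promoters, and interferon gamma acts through the gamma-activated site (GAS). The induced proteins sense foreign nucleic acid, degrade or sequester viral RNA, block virus release or amplify the response itself. In the liver, stellate cells, Kupffer cells, endothelial cells and hepatocytes can all respond to interferon.

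Promoters of 4 members are shown because their genes had the largest differences between ACT and QS among members with a single promoter and an ISRE match. Promoters, taken from RefSeq for build GRCm38.p6 as 250 bases before to 50 bases after the start, were matched for 33 members. The ISRE was searched as GAAANNGAAA and the GAS as TTCNNNGAA, each on both strands and independently of the other, so matches may share bases. An ISRE match lay in the promoter of 18 of the 33 members (54.5%), against 3.99% of the 27025 genes with a promoter and 3.95% of those in the expression table. A GAS match lay in 9 of the 33 (27.3%), against 9.55% and 8.34%. Capitals mark the ISRE matches, which read on the opposite strand in all 4 promoters.
Rsad2, chr12:26456403-26456702, minus strand: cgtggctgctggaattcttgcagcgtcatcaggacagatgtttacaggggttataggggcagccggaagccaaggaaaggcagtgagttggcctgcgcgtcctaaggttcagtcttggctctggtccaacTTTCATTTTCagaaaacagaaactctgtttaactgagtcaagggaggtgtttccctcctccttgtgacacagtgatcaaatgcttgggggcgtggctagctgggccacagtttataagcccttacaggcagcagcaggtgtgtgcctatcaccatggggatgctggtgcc
Ifit3, chr19:34583279-34583578, plus strand: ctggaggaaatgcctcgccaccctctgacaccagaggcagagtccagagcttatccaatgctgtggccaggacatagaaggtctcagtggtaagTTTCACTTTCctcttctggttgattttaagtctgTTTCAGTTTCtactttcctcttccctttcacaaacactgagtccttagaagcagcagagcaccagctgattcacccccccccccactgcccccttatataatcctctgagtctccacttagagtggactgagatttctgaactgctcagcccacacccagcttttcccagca
Ifit3b, chr19:34607707-34608006, plus strand: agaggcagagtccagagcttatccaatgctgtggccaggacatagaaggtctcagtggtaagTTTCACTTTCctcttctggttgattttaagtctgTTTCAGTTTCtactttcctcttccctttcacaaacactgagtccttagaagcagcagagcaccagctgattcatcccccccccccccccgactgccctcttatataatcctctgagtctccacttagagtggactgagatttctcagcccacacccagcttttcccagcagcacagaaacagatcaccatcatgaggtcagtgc
Ifit1, chr19:34640639-34640938, plus strand: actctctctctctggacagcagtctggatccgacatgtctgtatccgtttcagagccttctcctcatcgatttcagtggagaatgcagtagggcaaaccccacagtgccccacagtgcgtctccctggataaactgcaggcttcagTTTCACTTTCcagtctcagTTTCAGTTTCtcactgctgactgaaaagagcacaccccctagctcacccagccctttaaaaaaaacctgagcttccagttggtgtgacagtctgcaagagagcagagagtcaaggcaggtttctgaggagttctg

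The single match of Rsad2 began 120 bases before the start. Ifit3 had matches 156 and 122 bases before its start, Ifit3b had matches 188 and 154 bases before, and Ifit1 had matches 104 and 85 bases before. Ifit3 and Ifit3b are neighbouring near-copies with the same letters in both matches. Between ACT and QS the 18 members with an ISRE match had a median log2 fold change of -4.00, and the 15 without one had a median of -3.31. A match is a string of letters and not a known binding site.

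Values are read counts normalized to library size by the authors and are called CPM below. Where 3 values are given for a group, they follow the replicate number. The estimated depth in the listed genes was 8.67 to 11.1 M reads (megareads) in LAC, 5.85 to 11.6 M in KO, 11.4 to 14.0 M in ACT and 4.35 to 10.1 M in QS libraries, and 3 reads correspond to 0.212 CPM in the deepest and 0.720 CPM in the shallowest. Hk2 itself averaged 19.3 ± 0.575 CPM in LAC, 12.1 ± 1.48 CPM in KO, 181 ± 0.828 CPM in ACT and 71.2 ± 3.88 CPM in QS (SD, n = 3 each), with no overlap between KO and ACT. The exact two-sided permutation test gave p = 0.1 for that pair, the smallest that 3 against 3 libraries allow. All 10 stellate cell markers examined were measured, and their summed level was 1602 to 1675 CPM in LAC, 1429 to 1553 CPM in KO, 1166 to 1197 CPM in ACT and 5734 to 5899 CPM in QS. Markers of other liver cells were present as well. The 15 macrophage and Kupffer cell markers summed to 3415 to 3461 CPM in LAC, 524 to 546 CPM in KO, 13813 to 14145 CPM in ACT and 6305 to 6402 CPM in QS. The 13 liver endothelial markers summed to 3296 to 3459 CPM in LAC, 6413 to 7177 CPM in KO, 563 to 579 CPM in ACT and 14078 to 14454 CPM in QS. The 11 hepatocyte markers summed to 0.675 to 2.01 CPM in LAC, 314 to 320.2 CPM in KO, 23.1 to 26.7 CPM in ACT and 2065 to 2144 CPM in QS. In such bulk samples, fewer cells of a type and less RNA per cell cannot be told apart.

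**Figure D1:**
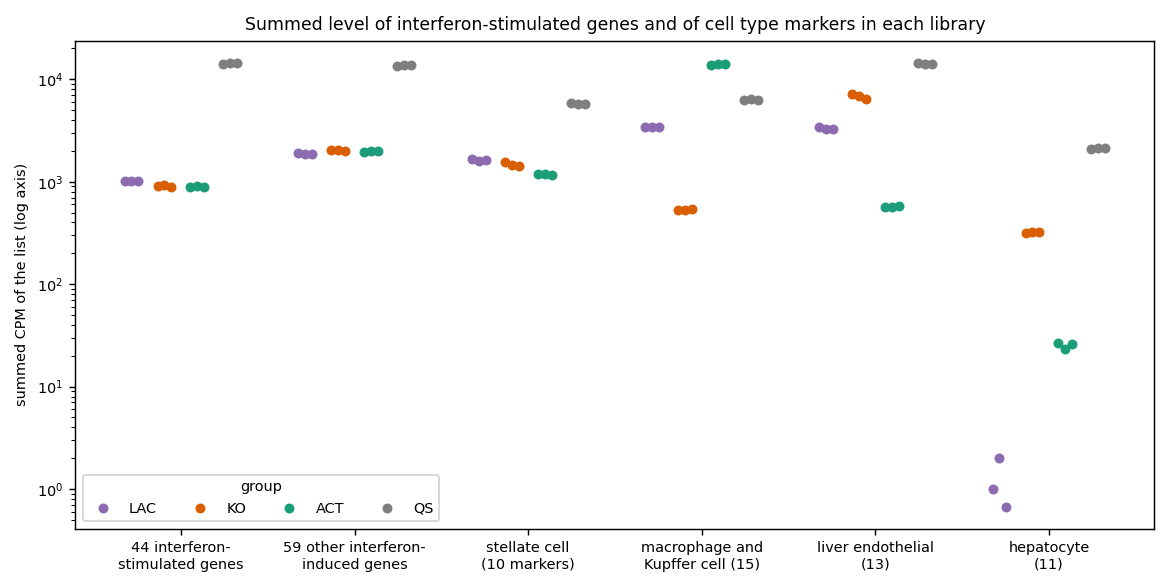
Summed CPM (log axis) of the 44 members, of 59 other interferon-induced genes and of 4 lists of cell type markers, with a point for each of the 3 libraries of LAC, KO, ACT and QS. The members sum to 1005 to 1028 CPM in LAC, 890.3 to 927 CPM in KO and 881 to 906 CPM in ACT, all far below the 14165 to 14451 CPM of QS. The summed macrophage markers are highest in ACT, although 6 of the 15 were called lower there than in QS. The summed endothelial markers are higher in KO than in ACT.

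Interferon-stimulated genes were high in freshly isolated cells and low in every cultured group. Rsad2, the antiviral enzyme viperin, had 10.7, 12.05 and 10.1 CPM in ACT libraries, against 1840.2, 1894 and 1950.0 CPM in QS libraries. Of the 44 members, 43 were lower in ACT than in QS and 0 were higher (limma, Benjamini-Hochberg adjusted p under 0.05 over all genes; 0 higher also at an unadjusted p under 0.05), against 35.5% of all 12081 genes called lower and 38.0% called higher in that comparison. Of the 43, Mx1 reached 1 CPM only in QS libraries, so it has a row through QS alone and could only be lower in culture. The median member had a log2 fold change of -4.19 on the log2(CPM + 1) scale, where the median of all genes was 0.03. All 43 were lower by at least 2-fold on that scale, beside 1800 of all 12081 genes. Relative to the mean of QS, the mean of ACT was under 1% for 7 members, under 5% for 23 and under 10% for 29, with a median of 4.83%. Summed over all 44 members, the level was 881 to 906 CPM in ACT and 14165 to 14451 CPM in QS. The widest differences were those of Iigp1 (-7.62 ± 0.12, SE, adjusted p = 5.43e-16), Rsad2 (-7.31 ± 0.11, adjusted p = 4.35e-16) and Ifit3 (-7.21 ± 0.19, adjusted p = 1.51e-13). The narrowest among the 43 was that of Eif2ak2, the kinase PKR (-1.60 ± 0.06, adjusted p = 1.80e-11).

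Ifi27 was the exception between ACT and QS, and its values are given because it stood out after they were seen. This small membrane protein gene had 27.7, 26.7 and 26.4 CPM in LAC, 13.8, 13.1 and 23.6 CPM in KO, 27.9, 28.6 and 31.3 CPM in ACT and 22.2, 34.6 and 27.1 CPM in QS libraries. Its log2 fold change was 0.08 ± 0.19 for ACT over QS (adjusted p = 0.696), and the libraries of ACT lay within the range of QS. Its neighbour Ifi27l2a was at 3.21% of its QS mean in ACT. Cell type markers differed in both directions in this comparison. Of the 10 stellate cell markers 2 were higher and 8 lower in ACT. All 13 endothelial and all 11 hepatocyte markers were also lower in ACT, whereas of the 15 macrophage markers 6 were higher, 6 were lower and 3 were not called, with a summed level higher in ACT than in QS. The part of endothelial cells and hepatocytes in the lower level of the members was not tested.

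**Figure D2:**
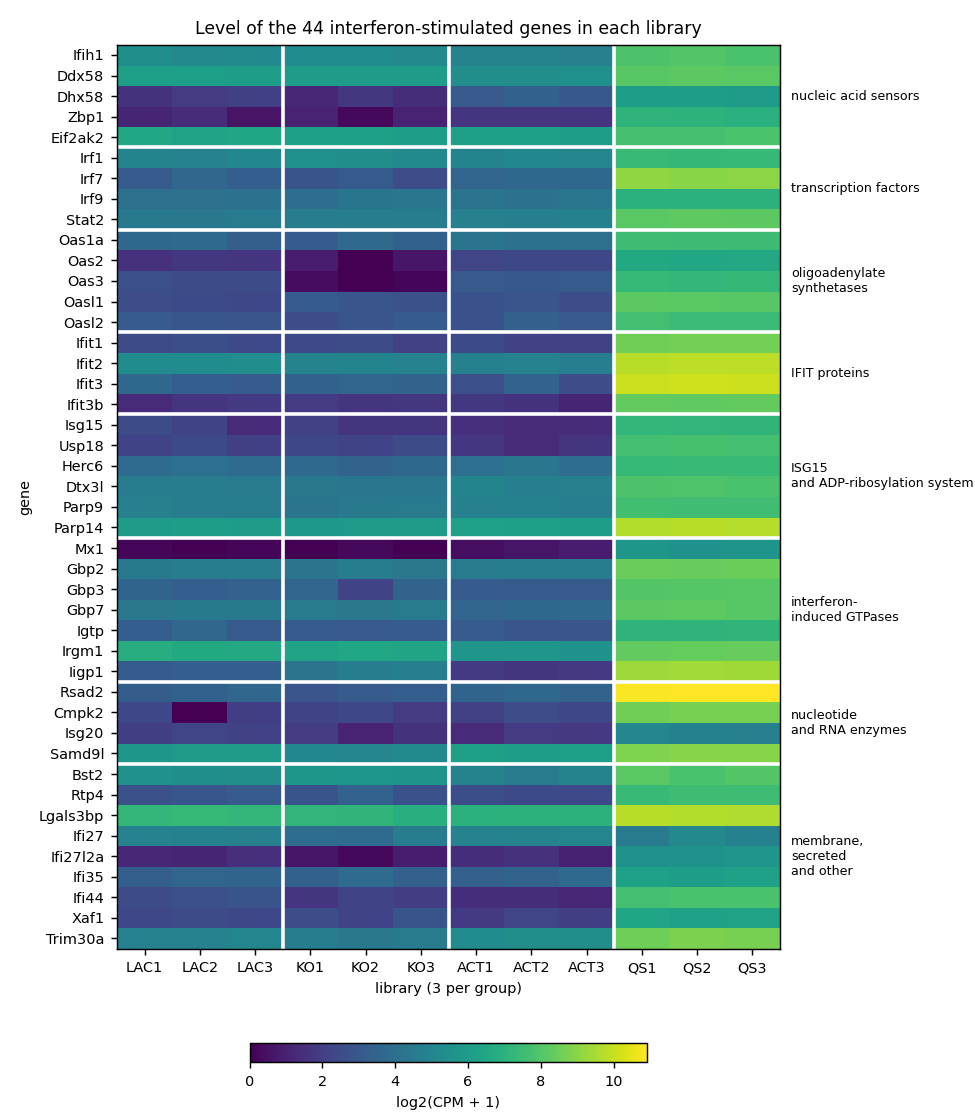
Level of each of the 44 members (rows, grouped by role) in each of the 12 libraries (columns, 3 each of LAC, KO, ACT and QS), as log2(CPM + 1) on a colour scale that starts at 0. Every row except Ifi27 is brightest in the QS columns, and the darkest cells include those of Mx1, Oas2 and Oas3 in KO and of Cmpk2 in LAC replicate 2.

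Members were also lower in the Hk2-deleted cultures than in fresh cells. In KO all 44 members were lower than in QS, against 35.7% of all genes called lower and 37.4% called higher, and 0 of the 44 were higher, also at an unadjusted p under 0.05 in limma. The median log2 fold change was -4.11, beside 0.02 for all genes, and 43 members were at least 2-fold lower on the log2(CPM + 1) scale. The comparison shares its QS libraries with that of ACT, and Mx1 has its row through QS alone here too. Ifi27 was the member with the smallest difference, at -0.72 ± 0.19 (adjusted p = 0.00319) and with overlapping libraries. Beside this, all 15 macrophage markers were lower in KO than in QS, as were 11 of 13 endothelial, all 11 hepatocyte and 8 of 10 stellate cell markers, while the other 2 stellate cell markers were higher.

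Among the cultured groups the differences ran both ways. Between KO and ACT, 12 members were higher and 18 were lower, and 14 were not called, against 36.0% of all genes called higher and 26.3% called lower, so the shares of 27.3% and 40.9% of members lay on either side of that background. The median log2 fold change was -0.02 for the members and 0.07 for all genes. On the log2(CPM + 1) scale 1 member was higher by at least 2-fold, Iigp1, and 4 were lower by that much, Oas3, Oas2, Dhx58 and Samd9l. By the ratio of mean CPM 2 called members were at least 2-fold higher, with Usp18 added, and 7 at least 2-fold lower, with Zbp1, Mx1 and Ifi27l2a added. The summed level of the 44 genes was 890.3 to 927 CPM in KO and 881 to 906 CPM in ACT, which overlap. Beside these mixed differences, 13 of 15 macrophage markers were lower in KO and all 13 endothelial markers were higher, as were all 11 hepatocyte markers and 8 of 10 stellate cell markers, the other 2 being lower. The part of these cells in single members was not tested. Of the 30 calls, 24 were kept in all 24 alternative settings (other pseudocounts, filter, scalings and fits, and leaving out each library), and 6 rested on single libraries or settings. Gbp2 was lost without ACT replicate 2 or 3, KO replicate 1 or 3, LAC replicate 3 or any single QS library (adjusted p 0.0503 to 0.187). Xaf1 was lost without ACT replicate 1 or 3 or KO replicate 1 or 3 (0.0559 to 0.104). Ifit3 was lost without ACT replicate 1 or 3 (adjusted p 0.0578 and 0.065), Stat2 without ACT replicate 3 or KO replicate 2 (adjusted p 0.0869 and 0.0643), Mx1 without ACT replicate 3 (adjusted p 0.0883) and Rtp4 without KO replicate 2 (adjusted p 0.0568).

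Lactate on Hk2-deleted cells went with more rises than falls. In LAC 17 members were higher than in KO, 5 were lower and 22 were not called, against 20.0% of all genes called higher and 21.0% called lower. The median log2 fold change was 0.17, beside -0.02 for all genes, and the members summed to 1005 to 1028 CPM in LAC and 890.3 to 927 CPM in KO, without overlap. Oas3 and Oas2 were higher and Iigp1 was lower by at least 2-fold on the log2(CPM + 1) scale, and by the ratio of mean CPM the called member Ifi27l2a was at least 2-fold higher too. Macrophage markers moved in the same direction as most called members, with 10 of 15 higher and 2 lower in LAC, while all 13 endothelial and all 11 hepatocyte markers were lower. Of the 10 stellate cell markers 4 were higher and 3 lower. The part of these cells in the result was not tested. Of these 22 calls, 11 were lost in at least 1 of 24 alternative settings, 9 of them on leaving out a library. Stat2 was lost without LAC replicate 2 (adjusted p = 0.0609), Dtx3l without LAC replicate 1 or 2 (adjusted p 0.0599 and 0.0625), Parp9 without KO replicate 1 or LAC replicate 1 (adjusted p 0.063 and 0.0643) and Ifi27l2a without KO replicate 2 or LAC replicate 3 (adjusted p 0.0831 and 0.0782). Parp14 was lost without KO replicate 1, LAC replicate 1 or LAC replicate 2 (adjusted p up to 0.138). Isg20, Bst2, Rsad2 and Lgals3bp were lost on leaving out any of 5, 5, 6 and 7 libraries, with adjusted p up to 0.171, 0.121, 0.158 and 0.13.

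Set against ACT, LAC had 14 members higher, 11 lower and 19 not called, where 27.8% of all genes were called higher and 21.7% lower. The median log2 fold change was -0.06, beside 0.03 for all genes. LAC against ACT differs in 2 respects, the deletion and the lactate, and shares its libraries with both comparisons above, so values are set side by side below and no agreement between the comparisons is counted. Macrophage markers were lower in LAC for 14 of 15 and endothelial markers higher for all 13, while 6 of 11 hepatocyte markers were lower and 0 higher, and 9 of 10 stellate cell markers were higher and 1 lower. Of the 25 calls, 16 were kept in all 24 settings. Dtx3l was lost without ACT replicate 1 or LAC replicate 3 (adjusted p 0.0974 and 0.089), and Igtp without ACT replicate 2, ACT replicate 3 or LAC replicate 2 (up to 0.143). Parp14, Mx1, Rtp4, Isg15 and Zbp1 were lost on leaving out any of 4, 4, 5, 8 and 8 libraries, with adjusted p up to 0.092, 0.135, 0.152, 0.201 and 0.192.

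**Figure D3:**
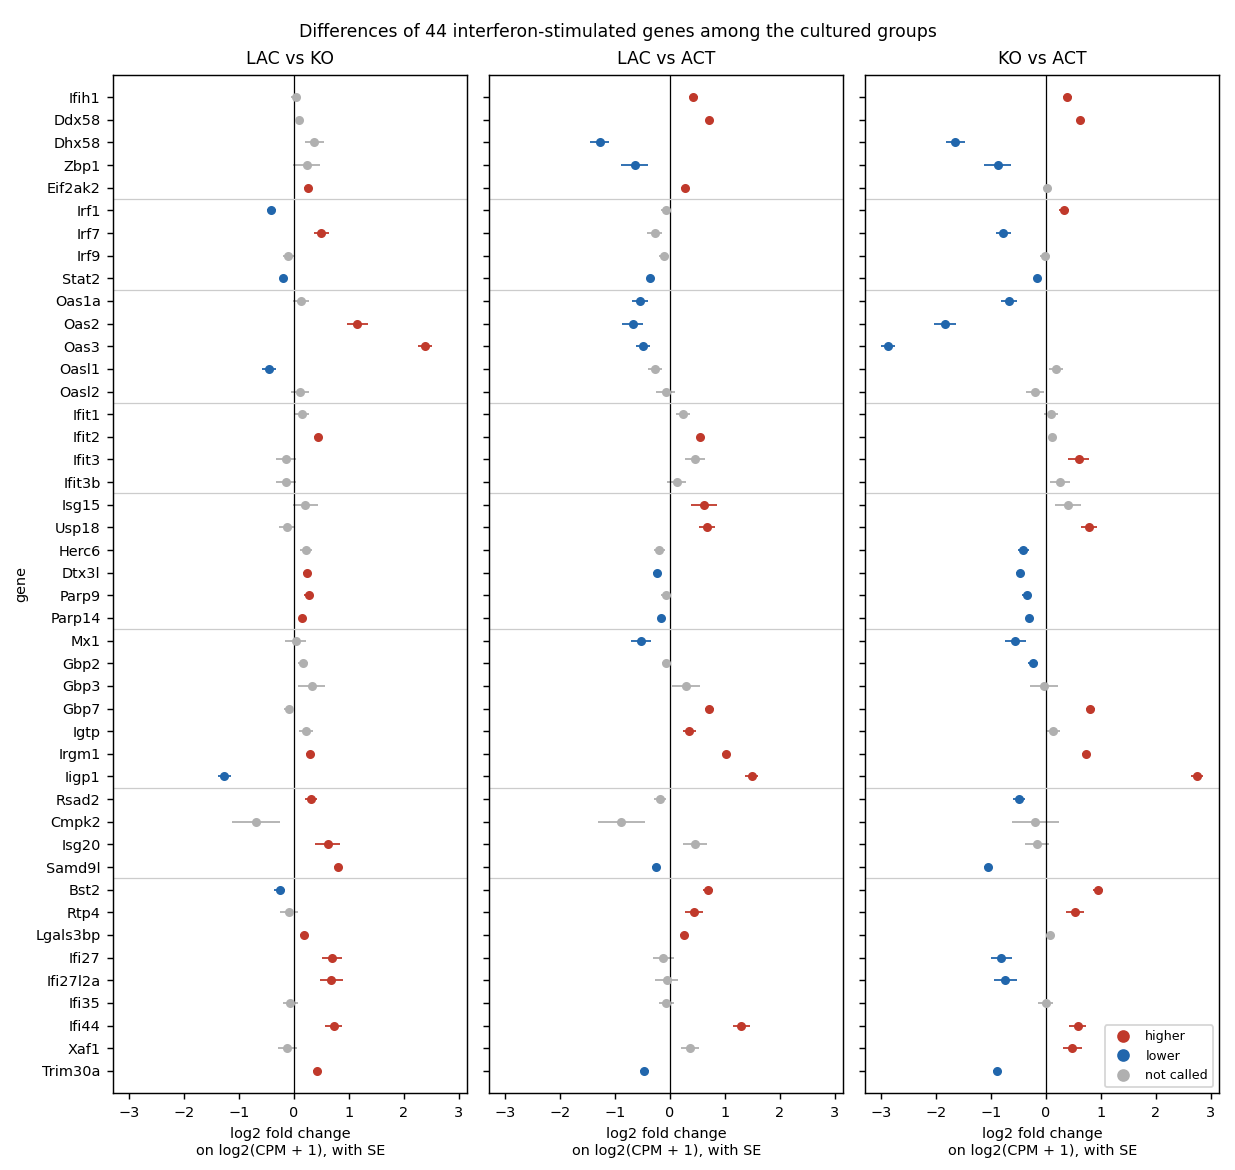
Log2 fold change on the log2(CPM + 1) scale of the 44 members (rows, in the role order of the heat map) for LAC over KO, LAC over ACT and KO over ACT, with bars of 1 SE; red marks members called higher, blue members called lower and grey those not called. Most points lie within 1 of zero, with Oas3 (-2.86) and Iigp1 (2.75) the widest for KO over ACT.

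The nucleic acid sensors differed from each other in the cultured groups. Ddx58, the RNA sensor RIG-I, had 71.2, 70.4 and 66.9 CPM in LAC, 64.1, 65.7 and 64.4 CPM in KO, 40.6, 41.2 and 43.9 CPM in ACT and 275, 288 and 284 CPM in QS libraries. Ifih1, the sensor MDA5 for long RNA duplexes, had 42.9, 33.95 and 36.9 CPM in LAC, 39.03, 37.7 and 33.9 CPM in KO, 28.7, 28.5 and 26.2 CPM in ACT and 234, 254 and 224 CPM in QS libraries. Both were higher in KO than in ACT without overlap, Ddx58 by 0.62 ± 0.05 (adjusted p = 3.48e-08) and Ifih1 by 0.39 ± 0.09 (adjusted p = 0.00113). Dhx58, a related helicase called LGP2 that tunes the other sensors, had 2.03, 2.85 and 3.18 CPM in LAC, 1.404, 2.45 and 1.71 CPM in KO, 7.33, 9.53 and 6.84 CPM in ACT and 67.8, 66.1 and 65.7 CPM in QS libraries. It was lower in KO than in ACT (-1.64 ± 0.17, adjusted p = 1.59e-06) and in LAC than in ACT (-1.27), and the libraries of LAC overlapped those of KO. Zbp1, a sensor of Z-form nucleic acid that can start necroptosis, had 1.22, 1.58 and 0.481 CPM in LAC, 1.09, 0.165 and 1.14 CPM in KO, 2.16, 2.27 and 2.11 CPM in ACT and 137, 133 and 122 CPM in QS libraries. Its level in KO replicate 2 lay under that of 3 reads. Eif2ak2, the kinase PKR that halts translation when it binds RNA duplexes, had 90, 77.8 and 87.5 CPM in LAC, 72.1, 73.8 and 66.98 CPM in KO, 72.1, 71.9 and 66.04 CPM in ACT and 207, 210.2 and 228 CPM in QS libraries. In ACT, Eif2ak2 stood at 32.6% of its QS mean, the highest share of any member except Ifi27, and it was higher in LAC than in KO (0.26 ± 0.06, adjusted p = 0.00541), whereas KO and ACT overlapped.

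Transcription factors of the response were all lower in the cultured groups than in QS. Irf7, which drives interferon genes and amplifies the response, had 7.67, 11.1 and 8.76 CPM in LAC, 6.11, 7.599 and 4.98 CPM in KO, 10.7, 11.4 and 11.5 CPM in ACT and 556, 507 and 527 CPM in QS libraries. In ACT that was 2.12% of the QS mean. Irf7 was lower in KO than in ACT (-0.77 ± 0.13, adjusted p = 1.92e-04) and higher in LAC than in KO (0.50 ± 0.13, adjusted p = 0.00948), a call that was lost with only these groups in the fit (adjusted p = 0.061). Irf1, a factor that responds quickly to interferon gamma, had 29.7, 27.4 and 32.97 CPM in LAC, 43.7, 40.9 and 35.7 CPM in KO, 29.9, 33.8 and 31.3 CPM in ACT and 168, 153 and 161 CPM in QS libraries. Its differences from KO were opposite to those of Irf7, with KO above ACT (0.33 ± 0.09, adjusted p = 0.00416) and LAC below KO (-0.41 ± 0.09, adjusted p = 0.0018). Stat2, the partner of Irf9, had 20.2, 19.6 and 21.2 CPM in LAC, 23.5, 22.8 and 23.8 CPM in KO, 25.9, 25.6 and 27.2 CPM in ACT and 278, 294 and 292 CPM in QS libraries. Stat2 was lower in LAC than in ACT by a small margin without overlap (-0.35 ± 0.06, adjusted p = 1.39e-04). Irf9 was called in none of the 3 comparisons among cultured groups.

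The oligoadenylate synthetases, which make the messenger that activates RNase L, held the widest fall in KO. Oas3 had 5.42, 4.67 and 4.81 CPM in LAC, 0.288, 0 and 0.159 CPM in KO, 7.25, 7.17 and 7.5 CPM in ACT and 159, 149 and 153 CPM in QS libraries. It was lower in KO than in ACT, with a log2 fold change of -2.86 ± 0.13 (adjusted p = 1.07e-10), and higher in LAC than in KO, with 2.38 ± 0.13 (adjusted p = 3.21e-09). The added pseudocount understates differences at such low levels, where 2 of the KO libraries lay under the level of 3 reads and KO replicate 2 was listed at 0. Oas2 had 1.95, 2.37 and 2.19 CPM in LAC, 0.828, 0 and 0.5697 CPM in KO, 3.81, 4.15 and 4.23 CPM in ACT and 98.2, 92.8 and 94.9 CPM in QS libraries, with the same order of groups. It was lower in KO than in ACT (-1.83 ± 0.19, adjusted p = 1.49e-06) and higher in LAC than in KO (1.16 ± 0.19, adjusted p = 2.94e-04). Against ACT, both were lower in LAC (-0.48 and -0.68), and both of these calls were lost at a pseudocount of 0.1 (adjusted p 0.244 and 0.26). Oas1a had 12.1, 12.5 and 8.83 CPM in LAC, 8.06, 12.7 and 9.46 CPM in KO, 17.6, 16.5 and 15.3 CPM in ACT and 184, 177 and 177 CPM in QS libraries. Oas1a was lower in KO and in LAC than in ACT (-0.67 and -0.54), and KO and LAC overlapped. The OAS-like genes did not share this order. Oasl1, which in mice restrains translation of Irf7, had 4.97, 4.49 and 4.22 CPM in LAC, 8.07, 6.47 and 5.495 CPM in KO, 5.68, 6.34 and 5.08 CPM in ACT and 285, 277 and 269.7 CPM in QS libraries. Oasl1 was lower in LAC than in KO (-0.45 ± 0.13, adjusted p = 0.0106). That call was lost with only these groups in the fit (adjusted p = 0.064). Oasl2 had 7.86, 6.57 and 6.44 CPM in LAC, 4.91, 6.37 and 7.96 CPM in KO, 5.83, 9.28 and 7.32 CPM in ACT and 199.9, 173 and 174 CPM in QS libraries, and its cultured groups overlapped in every pair.

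The IFIT genes, whose proteins bind viral RNA that lacks host cap marks, had among the widest differences from QS. Ifit3 had 11.5, 8.69 and 7.69 CPM in LAC, 9.52, 10.9 and 10.2 CPM in KO, 5.33, 9.78 and 4.94 CPM in ACT and 1059, 1115 and 1098 CPM in QS libraries. In ACT its mean was 0.613% of that in QS. Ifit2 had 38.2, 39.02 and 39.5 CPM in LAC, 28.6, 29.5 and 27.7 CPM in KO, 26.6, 28.1 and 24.2 CPM in ACT and 861, 909 and 916 CPM in QS libraries. Ifit2 was higher in LAC than in KO (0.43 ± 0.06, adjusted p = 3.38e-05) and than in ACT (0.55 ± 0.06, adjusted p = 1.85e-06), and in both pairs the libraries were apart. Ifit1 had 4.62, 5.19 and 4.28 CPM in LAC, 4.38, 4.73 and 3.43 CPM in KO, 4.54, 3.43 and 3.498 CPM in ACT and 376, 398 and 395 CPM in QS libraries, with overlap between all cultured groups. Ifit3 was called higher in KO than in ACT (0.60 ± 0.19, adjusted p = 0.0124) although ACT replicate 2 lay within the range of KO. Ifit3 and Ifit3b are so alike that reads may be divided between them, and their single values are uncertain. Ifit3b stood at 0.605% of its QS mean in ACT.

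Isg15 is a ubiquitin-like protein attached to other proteins, with Herc6 as its mouse ligase and Usp18 as the protease that removes it and also restrains the receptor. Usp18 had 3.58, 4.44 and 3.24 CPM in LAC, 4.11, 3.63 and 4.7 CPM in KO, 2.33, 1.47 and 2.19 CPM in ACT and 203, 213 and 201 CPM in QS libraries. It was higher in KO than in ACT (0.79 ± 0.15, adjusted p = 3.45e-04) and in LAC than in ACT (0.67 ± 0.15, adjusted p = 0.00168), without overlap in either pair. Isg15 was called only for LAC over ACT (0.62) among the cultured pairs, with overlapping libraries, and Herc6 only for KO over ACT (-0.41). Parp14, an ADP-ribosyltransferase, had 64.2, 67 and 62.2 CPM in LAC, 55.7, 59.8 and 59.5 CPM in KO, 75.3, 72.5 and 67.98 CPM in ACT and 803, 863 and 847 CPM in QS libraries. Dtx3l, a ubiquitin ligase, had 23.6, 23.7 and 21 CPM in LAC, 19.9, 18.8 and 18.6 CPM in KO, 29.1, 25.5 and 25.8 CPM in ACT and 231, 238 and 220.4 CPM in QS libraries. Parp9, its partner, had 26.1, 23.8 and 23.6 CPM in LAC, 17.5, 20.7 and 22.2 CPM in KO, 26.2, 26.5 and 24.7 CPM in ACT and 197, 189 and 189 CPM in QS libraries. All 3 were lower in KO than in ACT, with log2 fold changes of -0.30 ± 0.05, -0.47 ± 0.07 and -0.35 ± 0.08 (adjusted p 1.51e-04, 6.91e-05 and 0.00197). They were also called higher in LAC than in KO, by 0.14, 0.24 and 0.28, and these are among the calls that single libraries removed. The genes Dtx3l (chr16:35926511-35939151) and Parp9 (chr16:35938470-35972605) lie on opposite strands and overlap at their ends in GENCODE M21. The kit keeps strand, but whether the counting used it is not given in the sources used here, so reads in that overlap may not be assigned to one gene with certainty.

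The interferon-induced GTPases held the widest rise in KO. Iigp1, an immunity-related GTPase that attacks the vacuoles of intracellular pathogens, had 8.17, 8.66 and 8.67 CPM in LAC, 17.4, 23.2 and 25.4 CPM in KO, 2.62, 2.08 and 2.48 CPM in ACT and 649, 679 and 661 CPM in QS libraries. No libraries of different groups overlapped. Iigp1 was higher in KO than in ACT (2.75 ± 0.12, adjusted p = 6.46e-11), lower in LAC than in KO (-1.26 ± 0.12, adjusted p = 1.07e-06) and higher in LAC than in ACT (1.49 ± 0.12, adjusted p = 1.03e-07). Its mean in KO was 3.32% of that in QS. Irgm1, a relative that regulates the other immunity-related GTPases, had 109.8, 99.6 and 96.2 CPM in LAC, 76.8, 90.7 and 81.7 CPM in KO, 50.9, 50.8 and 47.3 CPM in ACT and 313, 322 and 335 CPM in QS libraries. Irgm1 was higher in KO than in ACT (0.73 ± 0.06, adjusted p = 2.50e-07) and higher still in LAC (0.29 ± 0.06 over KO, adjusted p = 0.00262). Among the guanylate-binding proteins, Gbp7 had 19.3, 20.2 and 20.1 CPM in LAC, 22.3, 18.98 and 22.6 CPM in KO, 10.9, 11.98 and 12.2 CPM in ACT and 288, 295 and 270.4 CPM in QS libraries. It was higher in KO than in ACT (0.81 ± 0.08, adjusted p = 5.60e-07) and than in ACT also in LAC (0.72), while LAC and KO overlapped. Its neighbour Gbp2 had 20.4, 23.3 and 22.96 CPM in LAC, 17.5, 23.1 and 18.9 CPM in KO, 21.9, 23.9 and 23.8 CPM in ACT and 345, 336 and 355 CPM in QS libraries, and the called difference between KO and ACT was -0.22 with overlapping libraries. Gbp3 was called in none of the comparisons among cultured groups, and Igtp only for LAC over ACT (0.36). Mx1, a dynamin-like GTPase that blocks influenza virus, had 0.0942, 0 and 0.139 CPM in LAC, 0, 0.165 and 0 CPM in KO, 0.336, 0.521 and 0.824 CPM in ACT and 54.3, 47.1 and 49.2 CPM in QS libraries. All 6 libraries of LAC and KO lay under the level of 3 reads, so no fold is given among the cultured groups, although limma called Mx1 lower in KO and in LAC than in ACT (adjusted p = 0.0196 and 0.033). Both calls were lost at a pseudocount of 5 (adjusted p 0.17 and 0.218).

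Enzymes that act on nucleotides and RNA included the member with the highest values in QS. Rsad2, which makes a chain-terminating nucleotide, had 8.26, 9.39 and 11.1 CPM in LAC, 6.39, 7.75 and 8.49 CPM in KO, 10.7, 12.05 and 10.1 CPM in ACT and 1840.2, 1894 and 1950.0 CPM in QS libraries. The ACT mean was 0.578% of that in QS. Rsad2 was lower in KO than in ACT (-0.49 ± 0.11, adjusted p = 0.00142), and the higher level in LAC than in KO (0.31 ± 0.11, adjusted p = 0.0356) came with overlapping libraries. Cmpk2, a mitochondrial nucleotide kinase whose gene lies beside Rsad2, had 4.21, 0 and 3.07 CPM in LAC, 3.61, 4.202 and 2.71 CPM in KO, 3.44, 4.94 and 4.01 CPM in ACT and 379.9, 412 and 415 CPM in QS libraries. LAC replicate 2 was listed at 0 while the other libraries of LAC were near those of KO and ACT, and Cmpk2 was not called among the cultured groups. Samd9l, an antiviral protein that restrains translation, had 54.97, 60.1 and 61.5 CPM in LAC, 33.3, 30.3 and 36.3 CPM in KO, 73.8, 66.9 and 69.97 CPM in ACT and 448, 496 and 491 CPM in QS libraries. The libraries of all 4 groups were apart. Samd9l was lower in KO than in ACT (-1.06 ± 0.07, adjusted p = 9.06e-09), higher in LAC than in KO (0.80 ± 0.07, adjusted p = 5.52e-07) and lower in LAC than in ACT (-0.25 ± 0.07, adjusted p = 0.00792). Isg20, an RNA exonuclease, was called only for LAC over KO (0.62) in the cultured cells.

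**Figure D4:**
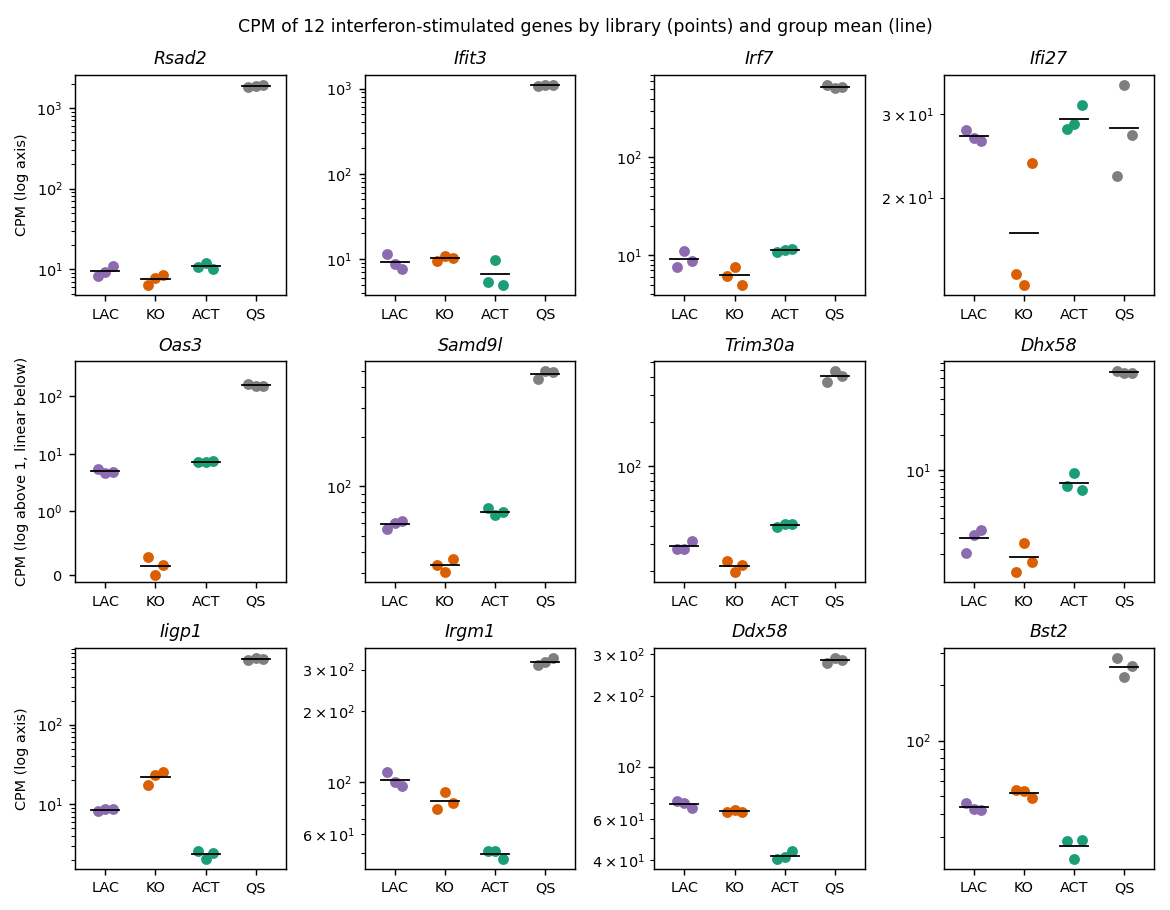
CPM of 12 members in each library (points) with the group mean (line), on log axes except that the axis of Oas3 is linear below 1, in LAC, KO, ACT and QS. The QS points lie above all others in every panel except that of Ifi27, KO is lowest for Oas3 and Samd9l, and ACT is lowest for Iigp1, Irgm1, Ddx58 and Bst2.

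Membrane, secreted and other members were mixed. Bst2, the tetherin that holds budding virus at the cell surface, had 45.8, 42.3 and 41.8 CPM in LAC, 53.97, 53.1 and 48.96 CPM in KO, 28.2, 22.7 and 28.6 CPM in ACT and 281, 222 and 256 CPM in QS libraries. It was higher in KO than in ACT (0.95 ± 0.10, adjusted p = 8.39e-07) and in LAC than in ACT (0.69 ± 0.10, adjusted p = 3.08e-05). Lgals3bp, a secreted glycoprotein, had 151, 157 and 151 CPM in LAC, 146, 143 and 117 CPM in KO, 127, 129 and 128 CPM in ACT and 854, 806 and 781 CPM in QS libraries. It was higher in LAC than in ACT (0.26 ± 0.07, adjusted p = 0.00487). Trim30a, which restrains Toll-like receptor signalling in mice, had 27.8, 28.2 and 31.7 CPM in LAC, 23.4, 19.6 and 21.8 CPM in KO, 39.4, 41.01 and 41.4 CPM in ACT and 371, 434 and 406 CPM in QS libraries. All 4 groups were apart, with Trim30a lower in KO than in ACT (-0.88 ± 0.08, adjusted p = 1.98e-07) and higher in LAC than in KO (0.42 ± 0.08, adjusted p = 6.16e-04). Ifi44 had 4.59, 5.42 and 6.07 CPM in LAC, 2.09, 3.63 and 2.93 CPM in KO, 1.71, 1.69 and 1.31 CPM in ACT and 201, 221 and 219.8 CPM in QS libraries. It was higher in KO than in ACT (0.58 ± 0.16, adjusted p = 0.00534) and higher in LAC than in KO (0.72 ± 0.16, adjusted p = 0.0021). Rtp4, a chaperone of membrane receptors, had 5.58, 6.65 and 7.85 CPM in LAC, 6.203, 9.89 and 5.84 CPM in KO, 5.09, 4.48 and 4.3 CPM in ACT and 166, 187 and 183 CPM in QS libraries. Xaf1, which binds an inhibitor of apoptosis, had 4.11, 4.82 and 4.17 CPM in LAC, 5.01, 3.55 and 6.14 CPM in KO, 2.64, 3.84 and 3.06 CPM in ACT and 83.8, 74.6 and 78.2 CPM in QS libraries. Both were called higher in KO than in ACT (0.53 and 0.48), Xaf1 with overlapping libraries. Ifi27 was lower in KO than in ACT (-0.81 ± 0.19, adjusted p = 0.00185) and higher in LAC than in KO (0.69 ± 0.19, adjusted p = 0.00919), and Ifi27l2a had differences of -0.74 and 0.68 with 1 KO library under the level of 3 reads. Ifi35 was not called among the cultured groups.

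Members that lie side by side in the genome were compared by the direction of their differences between KO and ACT. The 4 IFIT genes lie in a row on chromosome 19, from Ifit2 (chr19:34550694-34576419) through Ifit3 (chr19:34583531-34588731) and Ifit3b (chr19:34607970-34613401) to Ifit1 (chr19:34640871-34650009) in build mm10, and all 4 had positive log2 fold changes for KO over ACT, from 0.10 to 0.60, of which that of Ifit3 was called. The median log2 fold change of all genes was itself 0.07 there. The call of Ifit3 came with overlapping libraries and was lost without ACT replicate 1 or 3. On chromosome 5, Oas2 (chr5:120730333-120749853), Oas3 (chr5:120753098-120777661) and Oas1a (chr5:120896256-120907521) were all lower in KO than in ACT. The genes Oasl2 (chr5:114896936-114912234) and Oasl1 (chr5:114923240-114937915), on the same chromosome, were not called. On chromosome 3, Gbp7 (chr3:142530342-142550149), Gbp3 (chr3:142560026-142573209) and Gbp2 (chr3:142620602-142638008) had log2 fold changes of 0.81, -0.03 and -0.22. Gbp3 was not called, and the call of Gbp2 came with overlapping libraries and was lost in 13 of 24 settings. Dtx3l, Parp9 and Parp14 on chromosome 16 were all lower in KO than in ACT. Rsad2 (chr12:26442746-26456452) and Cmpk2 (chr12:26469204-26479837) lie next to each other on chromosome 12, where Ifi27 (chr12:103434211-103440239) and Ifi27l2a (chr12:103442167-103443680) are also neighbours. For KO over ACT, Rsad2 and Cmpk2 had log2 fold changes of -0.49 and -0.19, of which that of Cmpk2 was not called. Ifi27 and Ifi27l2a had -0.81 and -0.74, both called.

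A second list of 61 genes induced by interferon, none of them a member, was low in culture as well. Like the members, it was chosen with earlier results of these data known. Of its 59 measured genes, 58 were lower in ACT than in QS (98.3%, beside 35.5% of all genes), 0 were higher (also at an unadjusted p under 0.05 in limma), and the median log2 fold change was -2.94. Ly6a, a surface antigen also called Sca-1 that endothelial cells carry too, averaged 2.37 ± 0.192 CPM in ACT and 272 ± 17.3 CPM in QS (SD, n = 3 each). Tgtp2, another immunity-related GTPase, averaged 1.45 ± 0.4999 CPM in ACT and 173 ± 4.14 CPM in QS. Apol9a was the gene that was not called. Genes of this list with a row through QS alone could only be lower in culture, and their number was not determined. Between KO and ACT, 16 of the 59 were higher (27.1%), 18 were lower (30.5%) and 25 were not called, beside 36.0% and 26.3% of all genes. Slfn2, a regulator of T cell and monocyte quiescence, had 5.399, 4.45 and 4.84 CPM in KO libraries, against 65.3, 64.1 and 58.7 CPM in ACT libraries. Cd274, the immune checkpoint ligand PD-L1, had 4.94, 3.69 and 4.01 CPM in KO libraries, against 31.9, 34.4 and 33.4 CPM in ACT libraries. Both were lower in KO than in ACT (-3.44 ± 0.07 and -2.72 ± 0.09, adjusted p = 4.45e-14 and 3.35e-12), in the direction of the macrophage markers, and the part of macrophages was not tested. Tgtp2 was higher in KO than in ACT (2.49 ± 0.15, adjusted p = 2.62e-09). In LAC, 12 of the 59 were higher and 13 lower than in KO, shares of 20.3% and 22.0% that lie near the 20.0% and 21.0% of all genes. The called ones with the largest differences were Slfn2 (2.03), Cd274 (1.56), Epsti1 (1.41) and Ifitm1 (-1.40). Against ACT, 11 were higher (18.6%) and 17 lower (28.8%) in LAC, beside 27.8% and 21.7% of all genes.

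Genes upstream of the members went both ways. None of 21 interferon ligand genes had a row in the table, which lists genes with at least 1 CPM in at least 3 libraries, and the ligands were not analysed here. Of 8 measured receptor and kinase genes, 2 were higher and 4 were lower in ACT than in QS, with a median log2 fold change of -0.09. In that comparison 38.0% of all genes were called higher and 35.5% lower. Ifnar1, a chain of the type I interferon receptor, averaged 122 ± 8.23 CPM in ACT and 119 ± 7.36 CPM in QS, a difference of 0.04 ± 0.06 (adjusted p = 0.571). Its mean was 94.8 ± 3.78 CPM in LAC and 82.6 ± 2.56 CPM in KO. Against ACT it was lower in KO (-0.56 ± 0.06, limma adjusted p = 1.55e-06) and in LAC (-0.36 ± 0.06, adjusted p = 1.51e-04). LAC was above KO (0.20 ± 0.06, adjusted p = 0.0171). The other chain, Ifnar2, was lower in ACT (94.2 ± 4.32 CPM) than in QS (193 ± 4.81 CPM, adjusted p = 1.83e-09). The kinases Jak1 and Jak2 were lower in ACT than in QS (-1.71 ± 0.03 and -1.92 ± 0.04) and higher in KO than in ACT (1.45 ± 0.03 and 0.70 ± 0.04). Between KO and ACT, 2 of the 8 genes were higher and 4 were lower, beside 36.0% and 26.3% of all genes. Il10rb, a receptor chain shared by interferon lambda and interleukin 10, averaged 82.5 ± 2.03 CPM in LAC, 54.1 ± 1.96 CPM in KO and 149 ± 7.48 CPM in ACT, and was lower in KO than in ACT (-1.44 ± 0.05, adjusted p = 5.55e-12). In LAC, 4 of the 8 genes were higher and 1 was lower than in KO, beside 20.0% and 21.0% of all genes. Against ACT, 3 were higher and 3 lower in LAC, beside 27.8% and 21.7% of all genes.

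Of 14 upstream sensors and adaptors, 2 were higher and 8 lower in ACT than in QS (14.3% and 57.1%, beside 38.0% and 35.5% of all genes). Between KO and ACT, 5 of them were higher and 4 lower, shares of 35.7% and 28.6% near the 36.0% and 26.3% of all genes. Tlr7, an endosomal RNA sensor of myeloid cells, averaged 19 ± 0.542 CPM in LAC, 1.12 ± 0.238 CPM in KO and 104 ± 3.98 CPM in ACT. Trim25, the ligase that activates Ddx58, was lower in ACT than in QS (-2.03 ± 0.04, adjusted p = 1.68e-14). Of 6 measured negative regulators, 2 were higher and 3 lower in ACT than in QS, beside 38.0% and 35.5% of all genes. In KO, 2 of the 6 were higher and 2 lower than in ACT, beside 36.0% and 26.3% of all genes. Socs3, an inhibitor of Janus kinase signalling, averaged 16.9 ± 0.318 CPM in LAC, 35.98 ± 1.11 CPM in KO, 7.38 ± 0.142 CPM in ACT and 56.3 ± 3.06 CPM in QS. Ptpn6, a phosphatase of blood cells, averaged 1.62 ± 0.302 CPM in KO and 83.7 ± 3.95 CPM in ACT, a difference of -5.02 ± 0.10 (adjusted p = 2.67e-14) in the direction of the macrophage markers. In LAC against KO, 5 of the 14 sensors and adaptors were higher and 3 lower (35.7% and 21.4%), as were 2 and 1 of the 6 negative regulators (33.3% and 16.7%). Of all genes, 20.0% were called higher and 21.0% lower there. In LAC against ACT, the counts higher and lower were 4 and 5 for the sensors and adaptors and 2 and 3 for the negative regulators. The shares of all genes there were 27.8% higher and 21.7% lower.

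Some cell type markers were listed at 0 in whole groups. Of the 15 macrophage markers Timd4 was listed at 0 in every LAC library, and of the 11 hepatocyte markers Cyp2e1, Cps1 and Hpd were at 0 in LAC and Hpd also in ACT. One of 12 lymphocyte and natural killer cell markers was measured, Cd3d, with a summed level of 1.06 to 2.05 CPM in LAC, 2.12 to 3.05 CPM in KO, 1.02 to 1.22 CPM in ACT and 2.40 to 2.91 CPM in QS. The 2 measured neutrophil markers of 6 summed to 7.10 to 7.61 CPM in LAC, 0.122 to 0.427 CPM in KO, 17.1 to 20.4 CPM in ACT and 47.7 to 57.6 CPM in QS. The 6 measured cholangiocyte and mesothelial markers of 7 summed to 43.4 to 46.9 CPM in LAC, 32.9 to 35.6 CPM in KO, 151 to 161 CPM in ACT and 19.8 to 20.4 CPM in QS. The plasmacytoid dendritic cell, a main source of type I interferon, was represented by 5 markers, of which none had a row in the table.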

How the data were processed

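The 12 libraries were made with a stranded mRNA kit, per the labels' protocols, and grouped by their titles. The deposited table gives the authors' normalized signal (CPM) for 12081 genes. It was treated as a signal because its column totals, 959233 to 1047042, partly exceed what plain CPM can reach. Build mm10 and the tools kallisto 0.44.0, edgeR 3.8, cutadapt 1.18 and FastQC 0.11.8 are named, without roles, per the submitters' processing notes. Values were rarely whole multiples of what 1 read is worth (19.3% to 25.6% within 0.01 of a whole read), so reads were not recovered and no count test was run. On reads estimated from what 1 read is worth, replicates differed by a chi-square per gene of 2.25 to 4.62. This is more than counting noise, but it may be technical and does not show that replicates are independent. Each library was counted once.

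Differences were tested in R 4.3.3 with limma 3.58.1, which fitted log2(CPM + 1) by 4 group means over all 12 libraries, with 8 residual degrees of freedom, moderation along the intensity trend and Benjamini-Hochberg adjustment over all 12081 genes. Genes were called at an adjusted p under 0.05. The script was tested on simulated data. Every listed gene reaches 1 CPM in 3 or more libraries, so a low-value filter had been applied before deposit. A pseudocount of 1 understates changes of low genes. Tables were made with Python 3.11.15. One list of upstream factors is not reported here. The members and lists were chosen with earlier results of these data known. Values are given library by library for 34 members. These are the 3 per role with the highest mean CPM and those called against the majority direction. Pathway genes were named among the 4 called ones per list and comparison with the largest differences. The exception is Apol9a, which was not called and was named after its values were seen. Ifnar1 was among those 4 for LAC over KO. It was not called for ACT over QS, and that difference is given after its values were seen. Gene positions came from GENCODE M21, in which 11887 symbols matched a single gene. Near-copies that share reads (Ifit, Oas and Gbp families) have uncertain single values. Alternatives were other pseudocounts, a filter at 5 CPM, other scalings, fits with fewer groups or other moderation, library weights, a block for the replicate number, stricter thresholds and leaving out each library.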

Additional observations from a re-analysis of the deposited data

How the results depend on the processing

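Counts of members lower than QS were 43 for ACT under all 26 alternatives and 43 or 44 for KO. Of the calls of single members, 4035 of 4264 recomputed values stayed on their side of the threshold, 229 fell below it and 0 reversed. The median log2 fold change of ACT over QS moved to -4.36, -4.28 and -3.41 at pseudocounts of 0.1, 0.5 and 5 and to -4.11 with an equal total per library, and leaving out single libraries gave -4.21 to -4.13. That of KO over QS moved to -4.20 and -3.64 at pseudocounts of 0.1 and 5, to -4.00 with an equal total and to -4.03 with an equal median, and leaving out libraries gave -4.19 to -4.10. The median of KO over ACT turned to 0.0065 with an equal total and 0.00082 with quantile normalization, and that of LAC over ACT ran from -0.082 to 0.010 on leaving out libraries, with 0.010 reached without ACT replicate 2, so both medians changed sign. For KO over ACT, asking for at least 2-fold on the log2(CPM + 1) scale left 1 member higher and 4 lower. For LAC over KO, fitting only these groups left 9 higher and 3 lower, an adjusted p under 0.01 left 10 and 2, asking for at least 2-fold left 2 and 1, and leaving out libraries gave 12 to 17 higher and 3 to 6 lower, with 3 lower without LAC replicate 2. For LAC over ACT, an adjusted p under 0.01 left 7 lower, and asking for at least 2-fold left 3 higher and 1 lower. Over all genes, the 2-fold demand left 1965 higher and 1800 lower for ACT over QS, 1108 and 1181 for KO over ACT, 618 and 264 for LAC over KO, 781 and 743 for LAC over ACT, and 1718 and 1620 for KO over QS, and an adjusted p under 0.01 left 1681 lower for LAC over KO. An equal total per library moved the median of all genes to 0.119 for KO over QS, beside 0.016 as deposited. Single calls were also lost with all libraries and the same threshold. Examples are Gbp2 and Stat2 for KO over ACT with an equal total per library, and Isg20 and Rsad2 for LAC over KO with quantile normalization. The causes of the losses were not tested. With the replicate block, members higher and lower were 12 and 18 for KO over ACT, 16 and 5 for LAC over KO and 15 and 9 for LAC over ACT. Same-numbered libraries had correlations of deviations from -0.0422 to 0.0858, and different-numbered ones from -0.0771 to 0.0531. Pairing by replicate number was therefore not evident, but such small correlations cannot exclude it. Depth limits Mx1, Oas2, Oas3, Zbp1 and Ifi27l2a, which lay under 3 reads in some KO or LAC libraries. Cmpk2 was listed at 0 in LAC replicate 2, where 3 reads correspond to 0.317 CPM. The other libraries of LAC had 4.21 and 3.07 CPM of Cmpk2, and the cause of the 0 was not tested.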
